A study of Mus musculus with 22 samples.

Results

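Lyl1, Zfp395, Cd300lb, Fam78a, Sox4, Dgkz and Gnpda1 are 7 of the 16059 genes measured in mouse macrophages treated with bacterial lipopolysaccharide (LPS), with or without acid. They were chosen by symbol for strong falls in RNA with LPS, and the name under which they were grouped also speaks of restoration by lactic acid. The values in LPS and control libraries therefore chose the genes, and the values with LPS plus lactic acid were in view. All 7 passed the filter on low counts, which 12213 genes passed. With LPS, Lyl1, Zfp395, Cd300lb, Fam78a and Sox4 kept at most 1.59% of their control level. The name "silenced" did not hold for Dgkz, which kept 15.8% of its control level with LPS, nor for Gnpda1, which kept 34.1%.

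As background, LPS is sensed by Toll-like receptor 4, and the first hours of its response both switch on inflammatory genes and lower the RNA of many genes active in the resting macrophage. Lyl1 is a basic helix-loop-helix transcription factor of blood stem and progenitor cells that pairs with E proteins to bind the short DNA motif called the E-box. Sox4 is a SoxC transcription factor of progenitor cells, and Zfp395 is a zinc finger protein whose human counterpart ZNF395 acts as a transcription regulator. Cd300lb is an activating receptor of the CD300 family on myeloid cells. Dgkz phosphorylates the second messenger diacylglycerol to phosphatidic acid, and Gnpda1 turns glucosamine 6-phosphate back into fructose 6-phosphate. Fam78a belongs to a small family of little-described proteins.

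The cells were bone marrow-derived macrophages of C57/BL6 mice, grown for 7 days in medium conditioned by L929 cells. RNA-seq libraries numbered 2 for each of 5 groups: LPS+LA, LPS+HCl, LPS, LA (lactic acid alone) and control (no agent). ATAC-seq, in which a transposase cuts open chromatin, covered LPS+LA, LPS, LA and control in 3 samples each, so no open chromatin was measured with HCl. Treatments lasted 3 h, LPS was used at 100 ng/ml and L-(+)-lactic acid at 10 mM in the LPS+LA group, while the labels leave the dose of LA alone unstated. For medium acidified with HCl the labels give pH 6.5 as an example, and the pH reached with lactic acid is not stated, so equal acidity of LPS+LA and LPS+HCl cannot be assumed. Nothing in the labels says that replicates came from separate mice or cultures, so each p-value reflects only how these samples vary, and that spread may be technical. In bulk RNA, fewer cells of a type and less RNA per cell cannot be told apart.

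The 10 libraries held 18668666 to 20219895 expected counts each, and levels are given in CPM, counts brought to a common library size after TMM scaling (edgeR's trimmed mean of M values). The 8 macrophage markers summed to between 13200 and 19000 CPM in every library. Markers of B cells, natural killer cells, erythroid cells and mast cells summed to at most 3.25 CPM, those of T cells to at most 6.34 CPM, neutrophil markers to at most 2.9 CPM and dendritic cell markers to at most 5.16 CPM. Replicate 2 of LPS+HCl and replicate 1 of control had none of the 12 brain markers at 0, against 2 to 8 at 0 in the other 8 libraries, and their Snap25 levels were 9.11 and 2.30 CPM against at most 0.834 CPM elsewhere. Both libraries enter comparisons below, and the values without them are given there.

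The windows around the transcription starts are shown first, because peaks of open chromatin over them are described below. They are taken from RefSeq (GRCm38.p6) and run from 250 bases before to 50 bases after a start, 5′ to 3′ on the strand of the gene. RefSeq windows matched 5 of the 7 genes, with 9 windows among them, and 6 are printed. Capitals mark each E-box (CANNTG, the motif type that Lyl1 and its E protein partners bind) and, in Dgkz, the sequence GAGGAAGT that the myeloid factor PU.1 binds.
Lyl1, chr8:84701207-84701506, plus strand: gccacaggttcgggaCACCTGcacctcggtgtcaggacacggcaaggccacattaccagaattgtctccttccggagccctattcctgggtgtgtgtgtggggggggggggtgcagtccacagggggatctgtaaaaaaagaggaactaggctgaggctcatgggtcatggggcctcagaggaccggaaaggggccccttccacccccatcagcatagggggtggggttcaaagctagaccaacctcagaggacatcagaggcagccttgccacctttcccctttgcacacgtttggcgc
Sox4, chr13:28953650-28953949, minus strand: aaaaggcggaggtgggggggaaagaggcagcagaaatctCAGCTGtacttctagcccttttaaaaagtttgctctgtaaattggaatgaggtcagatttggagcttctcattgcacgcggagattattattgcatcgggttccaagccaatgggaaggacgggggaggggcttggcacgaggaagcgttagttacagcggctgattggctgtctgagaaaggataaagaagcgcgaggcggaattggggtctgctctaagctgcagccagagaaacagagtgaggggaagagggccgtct
Cd300lb, chr11:114934322-114934621, minus strand: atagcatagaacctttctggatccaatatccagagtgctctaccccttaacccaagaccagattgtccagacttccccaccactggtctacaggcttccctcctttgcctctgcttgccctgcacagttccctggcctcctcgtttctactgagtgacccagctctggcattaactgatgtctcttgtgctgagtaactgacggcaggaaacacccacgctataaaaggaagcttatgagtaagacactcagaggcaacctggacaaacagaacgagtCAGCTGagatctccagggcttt
Dgkz, chr2:91950299-91950598, minus strand: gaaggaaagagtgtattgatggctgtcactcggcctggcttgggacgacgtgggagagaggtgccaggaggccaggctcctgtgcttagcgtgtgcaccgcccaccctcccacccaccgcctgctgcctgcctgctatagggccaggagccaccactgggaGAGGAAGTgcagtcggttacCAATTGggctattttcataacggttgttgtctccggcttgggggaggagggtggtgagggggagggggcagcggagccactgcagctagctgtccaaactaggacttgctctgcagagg
Fam78a, start A, chr2:32083656-32083955, minus strand: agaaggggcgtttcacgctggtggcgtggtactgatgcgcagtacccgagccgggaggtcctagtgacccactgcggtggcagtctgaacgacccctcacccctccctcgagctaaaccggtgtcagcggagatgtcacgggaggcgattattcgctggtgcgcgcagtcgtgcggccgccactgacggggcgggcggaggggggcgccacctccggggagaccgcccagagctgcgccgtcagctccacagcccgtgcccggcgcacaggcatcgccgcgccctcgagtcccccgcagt
Fam78a, start B, chr2:32084620-32084919, minus strand: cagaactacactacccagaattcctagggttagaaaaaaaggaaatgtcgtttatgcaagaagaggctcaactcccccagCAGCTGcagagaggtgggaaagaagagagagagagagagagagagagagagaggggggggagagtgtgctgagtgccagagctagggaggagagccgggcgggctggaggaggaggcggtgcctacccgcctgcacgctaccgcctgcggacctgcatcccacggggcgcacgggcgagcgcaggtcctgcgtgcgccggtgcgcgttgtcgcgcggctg
The E-box was found in each printed window except Fam78a start A, and in 8 of the 9 windows of these genes. It is short, and 72.3% of all 32851 windows held it. GAGGAAGT was found at position 162 of the Dgkz window, counted from its 5′ end, and in 3.2% of all windows. The other motifs, searched on both strands, had 0 matches in the 9 windows. These were TGACTCA and its reverse complement TGAGTCA for AP-1 (5.2% of all windows), TGACGTCA for the cAMP response element (1.79%), TTGCGCAA for C/EBP (0.183%), the NF-kB site (0.155%), the interferon response element (3.44%) and AACAAAG for Sox factors (5.85%). No motif other than the E-box was shared by these windows. Their content of G and C ran from 50.7% to 77.7%, beside a median of 52.7% over all windows.

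Among the transcription factors, Lyl1 (gene ID 17095, chr8:84701423-84704716, GRCm38.p6) was measured at 65.2 and 68.4 CPM with LPS+LA, 10.1 and 8.56 CPM with LPS+HCl, 1.88 and 1.52 CPM with LPS, 88.8 and 103 CPM with LA, and 106 and 115 CPM in control. No 2 of these 5 groups overlapped. Sox4 (20677, chr13:28948919-28953699) was measured at 9.21 and 8.06 CPM with LPS+LA, 2.5 and 1.27 CPM with LPS+HCl, 0.0648 and 0.264 CPM with LPS, 21.8 and 18.5 CPM with LA, and 9.78 and 10.9 CPM in control. Sox4 was thus highest with LA alone, and its LPS+LA libraries lay just below both control libraries. Its LPS libraries held 1 and 4 counts, so its level there is known only roughly. Zfp395 (380912, chr14:65358676-65398930) was measured at 22.2 and 23.3 CPM with LPS+LA, 5.23 and 4.36 CPM with LPS+HCl, 0.389 and 0.661 CPM with LPS, 74.1 and 64.1 CPM with LA, and 53.2 and 47.1 CPM in control. Here too the groups did not overlap, and LA alone was highest.

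The receptor gene Cd300lb (217304, chr11:114922779-114934371) was measured at 62.9 and 63.8 CPM with LPS+LA, 14.5 and 12 CPM with LPS+HCl, 1.81 and 2.38 CPM with LPS, 160 and 173 CPM with LA, and 150 and 148 CPM in control. The groups were again separate, with LA slightly above control. Fam78a (241303, chr2:32045969-32087472) was measured at 7.97 and 9.48 CPM with LPS+LA, 2.23 and 1.27 CPM with LPS+HCl, 0.0648 and 0.33 CPM with LPS, 30.1 and 29.1 CPM with LA, and 32.7 and 32.2 CPM in control. Its LPS libraries held 1 and 5 counts, and its LPS+LA libraries stayed far below LA and control.

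The 2 enzyme genes kept much more RNA with LPS. Dgkz (104418, chr2:91932822-91976443) was measured at 274 and 275 CPM with LPS+LA, 141 and 152 CPM with LPS+HCl, 55.7 and 56.4 CPM with LPS, 410 and 406 CPM with LA, and 334 and 378 CPM in control. All 5 groups of Dgkz were separate. Gnpda1 (26384, chr18:38327537-38338993) was measured at 114 and 107 CPM with LPS+LA, 77.3 and 79.1 CPM with LPS+HCl, 45.4 and 44.1 CPM with LPS, 132 and 123 CPM with LA, and 134 and 129 CPM in control. Its LA and control libraries overlapped, and the 3 groups with LPS lay below both without overlapping.

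**Figure D1:**
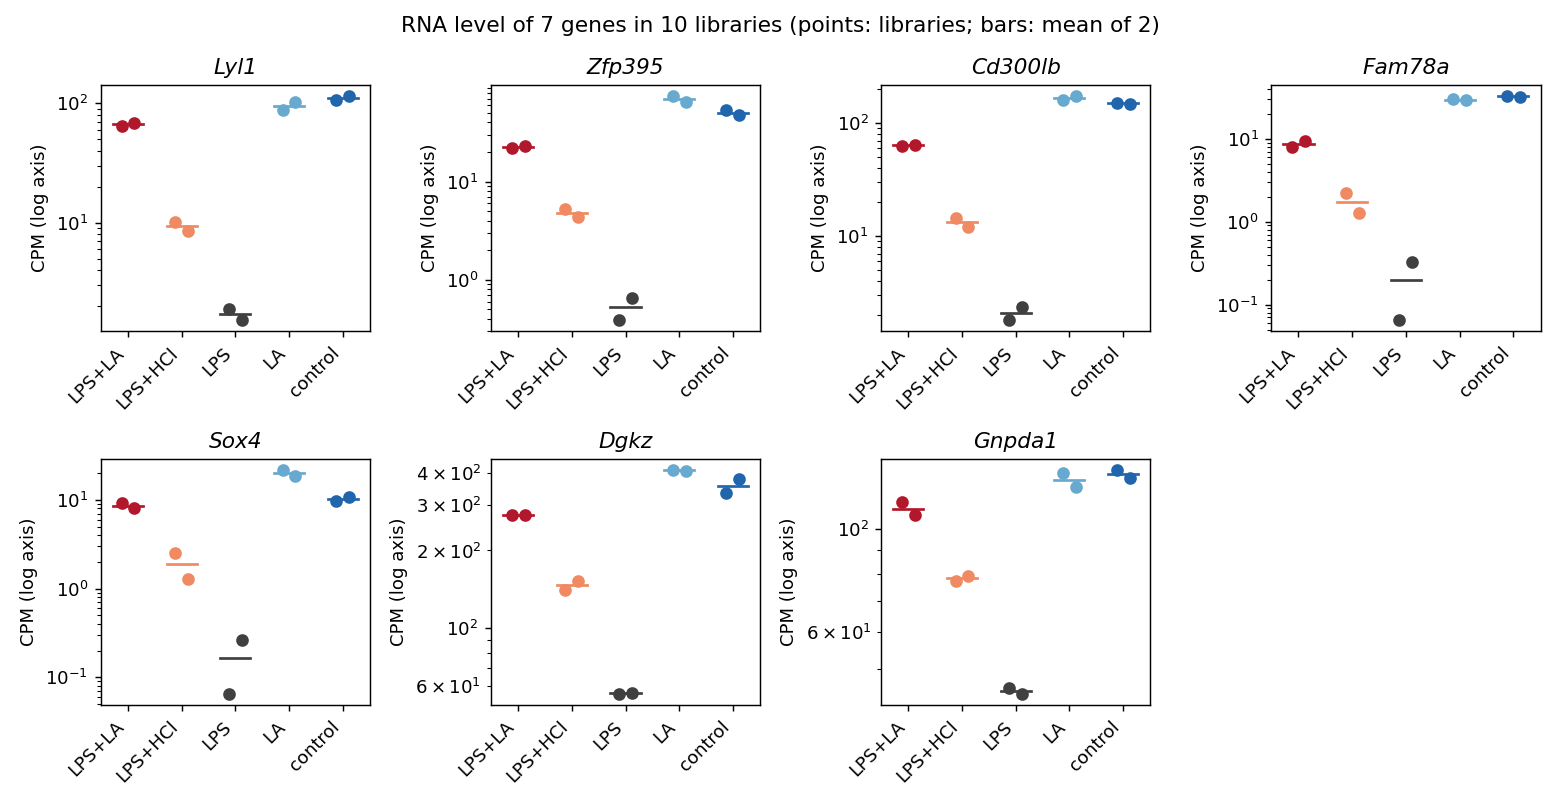
RNA level in CPM on a log axis for each gene, with 1 point per library and a bar at the mean of 2 libraries, for LPS+LA, LPS+HCl, LPS, LA and control. In each panel the LPS points are lowest, LPS+HCl lies above them and LPS+LA lies above LPS+HCl; in Lyl1 the means are 66.8, 9.34 and 1.7 CPM.

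Compared per length, in the deposited TPM, a scale that divides counts by gene length, the order of the genes differed between states. With LPS the mean levels ran from Gnpda1 (29.6 TPM) and Dgkz (24.0 TPM) to Lyl1 (1.48 TPM), Cd300lb (1.12 TPM), Zfp395 (0.19 TPM), Sox4 (0.085 TPM) and Fam78a (0.08 TPM). The LPS libraries of Sox4 and Fam78a overlapped, and the higher Sox4 library equalled the lower Zfp395 library at 0.14 TPM. In control the order was Dgkz (253 TPM), Lyl1 (159 TPM), Gnpda1 (145 TPM), Cd300lb (134 TPM), Zfp395 (29.7 TPM), Fam78a (20.5 TPM) and Sox4 (8.8 TPM), with no overlap between neighbours. Lyl1 thus lay above Gnpda1 in control and below it with LPS.

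The falls with LPS chose these genes and are described without a test. On the log2 scale, LPS against control was -7.32 (SE 0.31) for Fam78a, -6.56 (SE 0.21) for Zfp395, -6.15 (SE 0.14) for Cd300lb, -6.01 (SE 0.15) for Lyl1 and -5.93 (SE 0.41) for Sox4. They were the 5 deepest among the 8220 genes with at least 10 CPM in control, where Sox4 averaged 10.4 CPM. Among all 12213 genes tested, which include genes nearer to 0, Fam78a ranked 20, Zfp395 52, Cd300lb 94, Lyl1 106 and Sox4 113. Among those with at least 10 CPM, Dgkz (-2.67, SE 0.08) ranked 172 and Gnpda1 (-1.55, SE 0.08) ranked 612, so most genes that fell more than Gnpda1 lie outside the 7. The next genes there by depth of fall were Cnr2, the cannabinoid receptor of immune cells (-5.88), Cxcr4, the receptor of the chemokine Cxcl12 (-5.83), and Ccsap (-5.72). All 7 genes were called lower with LPS by edgeR, where 32.4% of all genes tested were, a share from which nothing is read because the choice fixed it. The log2 values of Fam78a and Sox4 hang on a few counts. Without LPS replicate 2, Fam78a gave -8.84 and Sox4 -7.19, and without LPS replicate 1 they gave -6.59 and -5.26.

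With both acids the RNA of all 7 genes stood above LPS alone, and more so with lactic acid. These contrasts share the LPS libraries that chose the genes, so they too are given without a test. LPS+LA against LPS was 5.67 (SE 0.42) for Sox4, 5.43 (SE 0.23) for Zfp395, 5.43 (SE 0.37) for Fam78a, 5.29 (SE 0.16) for Lyl1 and 4.91 (SE 0.14) for Cd300lb on the log2 scale. It was 2.29 (SE 0.08) for Dgkz and 1.31 (SE 0.08) for Gnpda1. LPS+HCl against LPS was 3.48 (SE 0.55) for Sox4, 3.18 (SE 0.30) for Zfp395, 3.11 (SE 0.51) for Fam78a, 2.65 (SE 0.17) for Cd300lb and 2.45 (SE 0.20) for Lyl1. It was 1.38 (SE 0.08) for Dgkz and 0.80 (SE 0.08) for Gnpda1. The call was higher for all 7 genes in both contrasts, beside 29.2% of all genes for LPS+LA against LPS and 18% for LPS+HCl against LPS, and again nothing is read from these counts.

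The ratios of Sox4, Fam78a and Zfp395 rest on few LPS counts and are given with exact 95% intervals that cover counting error only. In summed, TMM-scaled counts, Sox4 was 52.7 times (22.4 to 164) the LPS level with LPS+LA and 11.5 times (4.7 to 36.6) with LPS+HCl. Fam78a was 44.5 times (20.2 to 122) the LPS level with LPS+LA and 8.9 times (3.87 to 25.2) with LPS+HCl. Zfp395, with 16 LPS counts in all, was 43.5 times (26.6 to 76.5) the LPS level with LPS+LA and 9.16 times (5.48 to 16.4) with LPS+HCl. Leaving out LPS replicate 2 gave log2 values for LPS+LA against LPS of 6.95 in Fam78a and 6.93 in Sox4, and for LPS+HCl against LPS of 4.62 and 4.73 in the same genes. Leaving out LPS replicate 1 instead gave 4.71 and 5.00 for LPS+LA, and 2.37 and 2.80 for LPS+HCl.

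On a linear scale the genes stood at very different parts of their resting level with LPS and acid. The only treatment time given is 3 h, so a smaller fall and a regain after a fall cannot be told apart. As a percent of mean control CPM, LPS+LA libraries averaged 84.4% for Gnpda1, 83.3% for Sox4, 77.3% for Dgkz, 60.6% for Lyl1, 45.4% for Zfp395, 42.5% for Cd300lb and 26.9% for Fam78a. LPS+HCl libraries averaged 59.5% for Gnpda1, 41.1% for Dgkz, 18.2% for Sox4, 9.57% for Zfp395, 8.88% for Cd300lb, 8.48% for Lyl1 and 5.39% for Fam78a. With LPS alone these percents were 34.1 for Gnpda1, 15.8 for Dgkz, 1.59 for Sox4, 1.54 for Lyl1, 1.41 for Cd300lb, 1.05 for Zfp395 and 0.609 for Fam78a. Among the 5 genes under 2% with LPS, Fam78a, with the deepest fall, was lowest with LPS+LA, and Sox4, with the shallowest, was highest.

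The same percents were taken in the 605 other genes that fell with LPS at least as far as Gnpda1 and had at least 10 CPM in control. In those genes the median level was 61.8% of control with LPS+LA (quartiles 48.3% and 76.8%), 36.4% with LPS+HCl (quartiles 25.3% and 48.4%) and 22.9% with LPS (quartiles 14.5% and 28.9%). The medians over the 7 genes were 60.6% with LPS+LA, 9.57% with LPS+HCl and 1.54% with LPS. The median with lactic acid was thus near that of the other fallers, while the median with HCl was lower. The 7 genes were also far lower with LPS alone, and the sets were not matched for depth of fall. Cnr2, Cxcr4 and Ccsap, the genes next by depth of fall, stood at 3.64%, 17.1% and 8.17% of control with LPS+HCl. Lyl1 with LPS+LA lay above 48.6% of the 605 genes, and with LPS+HCl above 1.82% of them. Fam78a lay above 1.65% of them with LPS+LA and above 0.496% with LPS+HCl. Zfp395 and Cd300lb lay above 19.7% and 16.0% of them with LPS+LA, and above 2.98% and 2.31% with LPS+HCl. Sox4, Dgkz and Gnpda1 lay above 80.8%, 75.5% and 81.5% with LPS+LA, and above 13.2%, 60.2% and 88.4% with LPS+HCl. In deposited TPM, whose total is fixed per library, the medians over the 7 genes were 44.6% with LPS+LA and 6.66% with LPS+HCl. Control libraries chose both sets, so these percents are a description.

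**Figure D2:**
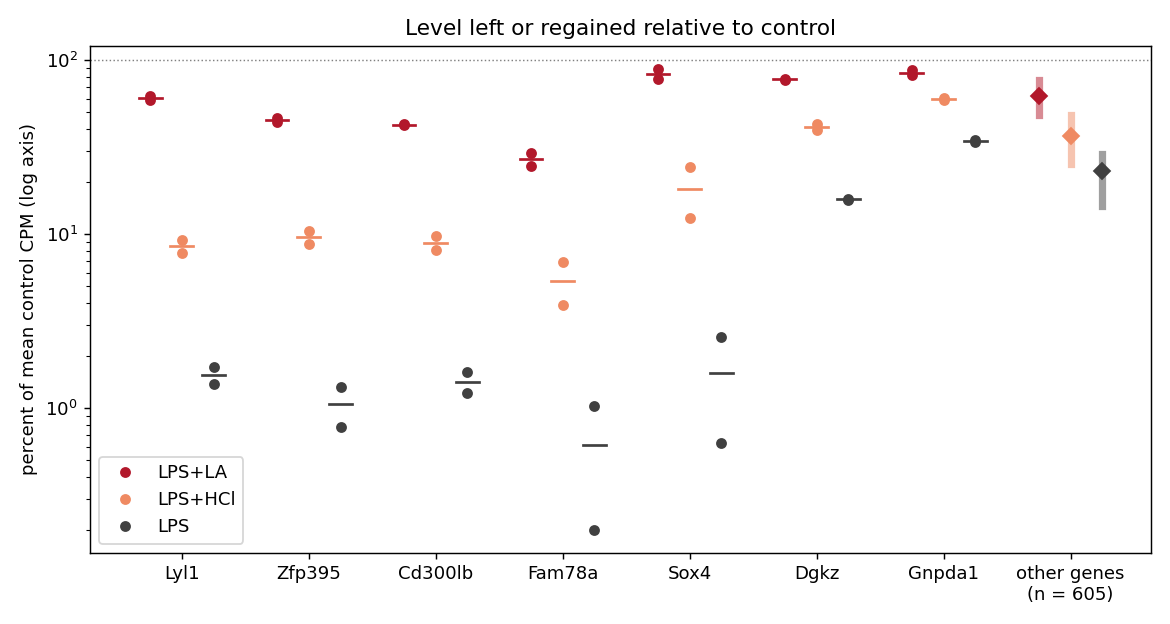
Level as percent of the mean control CPM on a log axis, with points for libraries and bars for means of 2, for LPS+LA, LPS+HCl and LPS; the dotted line is 100%, and the last column shows the median (diamond) and quartiles (bar) of 605 other genes that fell with LPS. The 5 genes under 2% with LPS stand with LPS+HCl at 5.39% to 18.2% and with LPS+LA at 26.9% to 83.3%, while the medians of the other genes are 36.4% and 61.8%. The other genes kept more with LPS, at a median of 22.9%.

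Lactic acid was compared with HCl under LPS by test. The fall with LPS did not use these libraries, but the LPS+LA values were in view when the genes were grouped, so neither this test nor that of LPS+LA against LA is independent of the choice. RNA of all 7 genes was higher with LPS+LA than with LPS+HCl, in each library of one group against each library of the other. The difference was largest in Lyl1, at 66.8 ± 2.29 CPM with LPS+LA and 9.34 ± 1.11 CPM with LPS+HCl (SD, n = 2 each), a log2 difference of 2.84 (SE 0.11, edgeR quasi-likelihood test, adjusted p = 8.53e-15). Fam78a averaged 8.73 ± 1.07 and 1.75 ± 0.675 CPM in LPS+LA and LPS+HCl libraries, a log2 difference of 2.32 (SE 0.23, edgeR adjusted p = 1.7e-08). Cd300lb averaged 63.3 ± 0.64 CPM with LPS+LA and 13.2 ± 1.75 CPM with LPS+HCl (2.26, SE 0.10, edgeR adjusted p = 3.68e-14).

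The other 2 of the 5 genes under 2% with LPS differed by similar amounts. Zfp395 averaged 22.8 ± 0.795 CPM with LPS+LA and 4.8 ± 0.612 CPM with LPS+HCl (2.25, SE 0.15, edgeR adjusted p = 1.83e-11). Sox4 averaged 8.63 ± 0.81 and 1.89 ± 0.872 CPM in LPS+LA and LPS+HCl libraries (2.19, SE 0.26, edgeR adjusted p = 2.63e-07). The 2 enzyme genes differed less on the log2 scale. Dgkz averaged 275 ± 0.856 CPM with LPS+LA and 146 ± 7.76 CPM with LPS+HCl (0.91, SE 0.07, edgeR adjusted p = 5.21e-10). Gnpda1 averaged 111 ± 5 CPM with LPS+LA and 78.2 ± 1.29 CPM with LPS+HCl (0.50, SE 0.08, edgeR adjusted p = 1.26e-05).

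All 7 genes were called higher with LPS+LA than with LPS+HCl, where 18.4% of all genes tested were. The median log2 difference was 2.25 over the 7 genes and -0.00 over all genes tested. Of the 605 other genes that fell with LPS, 81.2% were called higher and 5 were called lower, with a median log2 difference of 0.82. Being higher with lactic acid than with HCl was thus frequent among genes that fell with LPS, and the 5 genes under 2% with LPS had larger differences than that median. The 605 genes kept a median of 22.9% of control with LPS, so depth of fall was not matched. Cnr2, Cxcr4 and Ccsap, next by depth of fall, stood at 20.8%, 45.9% and 27.0% of control with LPS+LA. With LPS+HCl they stood at 3.64%, 17.1% and 8.17%, so large differences were not particular to the 7 genes. The 3 progenitor markers (Cd34, Kit and Ly6a), of the cells in which Lyl1 and Sox4 are best known, summed to 84.9 and 82.4 CPM with LPS+LA, 72.0 and 67.4 CPM with LPS+HCl, 68.5 and 71.4 CPM with LPS, 95.3 and 94.7 CPM with LA, and 68.3 and 67.8 CPM in control, with none at 0. They were thus higher in both groups given lactic acid and alike in LPS and control libraries, and their part in the difference was not tested. Without control replicate 1 and LPS+HCl replicate 2, the libraries with brain transcripts, all 7 calls were kept, and the log2 differences ran from 0.52 in Gnpda1 to 2.72 in Lyl1. Total-count scaling moved the median of all genes by 0.16, with 3947 genes called higher and 1893 lower, where TMM scaling gave 2243 higher and 2753 lower, and all 7 calls were kept.

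The second tested comparison was LPS+LA against LA. The labels leave the dose of LA alone unstated, so these groups may differ in lactic acid as well as in LPS. All 7 genes were called lower with LPS+LA than with LA, beside 14.6% of all genes tested and 70.1% of the 605 other fallers. Genes chosen for falls with LPS can be expected to be lower here, so these calls give no separate support. Fam78a averaged 8.73 ± 1.07 CPM with LPS+LA and 29.6 ± 0.732 CPM with LA (SD, n = 2 each), a log2 difference of -1.76 (SE 0.16, edgeR adjusted p = 5.2e-09). Zfp395 averaged 22.8 ± 0.795 CPM with LPS+LA and 69.1 ± 7.08 CPM with LA (-1.60, SE 0.11, edgeR adjusted p = 4.96e-11). Cd300lb averaged 63.3 ± 0.64 CPM with LPS+LA and 167 ± 9.02 CPM with LA (-1.40, SE 0.09, edgeR adjusted p = 2.73e-12). RNA was thus lower with LPS+LA than with LA, and in these 3 genes the difference was over 1 on the log2 scale.

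Sox4, the fourth gene with a log2 difference beyond 1, averaged 8.63 ± 0.81 CPM with LPS+LA and 20.2 ± 2.31 CPM with LA (-1.22, SE 0.20, edgeR adjusted p = 3.37e-05). Sox4 was near its control level with LPS+LA, yet well below the level reached with lactic acid alone. Dgkz averaged 275 ± 0.856 and 408 ± 3.18 CPM in LPS+LA and LA libraries (-0.57, SE 0.07, edgeR adjusted p = 7.78e-07), and Lyl1 averaged 66.8 ± 2.29 and 95.9 ± 10.1 CPM in the same groups (-0.52, SE 0.09, edgeR adjusted p = 9.18e-05). Gnpda1 differed least, with 111 ± 5 CPM with LPS+LA and 128 ± 6.33 CPM with LA (-0.21, SE 0.08, edgeR adjusted p = 0.0413). That call was lost in 12 of the 17 other settings, where its adjusted p reached 0.241, among them leaving out LA replicate 1 (0.209), LPS+LA replicate 1 (0.0676) or 2 (0.241), either LPS library (0.0838 each), or LPS+HCl replicate 1 (0.0606) or 2 (0.0603). The median log2 difference was -1.22 over the 7 genes, -0.59 over the 605 other fallers and -0.01 over all genes tested. Total-count scaling moved the median of all genes by -0.21, with 1294 genes called higher and 4260 lower, where TMM scaling gave 1941 higher and 1785 lower.

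LPS+HCl against LA is the one pair with no LPS, control or LPS+LA library in it. Its groups differ in LPS and also in the acid, so the part of each cannot be told apart. Genes chosen for falls with LPS can be expected to be lower in it, so it gives no separate support. All 7 genes were called lower with LPS+HCl, beside 26.7% of all genes tested. The log2 differences were -4.08 (SE 0.21) for Fam78a, -3.85 (SE 0.14) for Zfp395, -3.66 (SE 0.10) for Cd300lb, -3.41 (SE 0.24) for Sox4, -3.36 (SE 0.11) for Lyl1, -1.48 (SE 0.07) for Dgkz and -0.71 (SE 0.08) for Gnpda1. The largest adjusted p among them was that of Gnpda1 (edgeR, 3.01e-08).

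**Figure D3:**
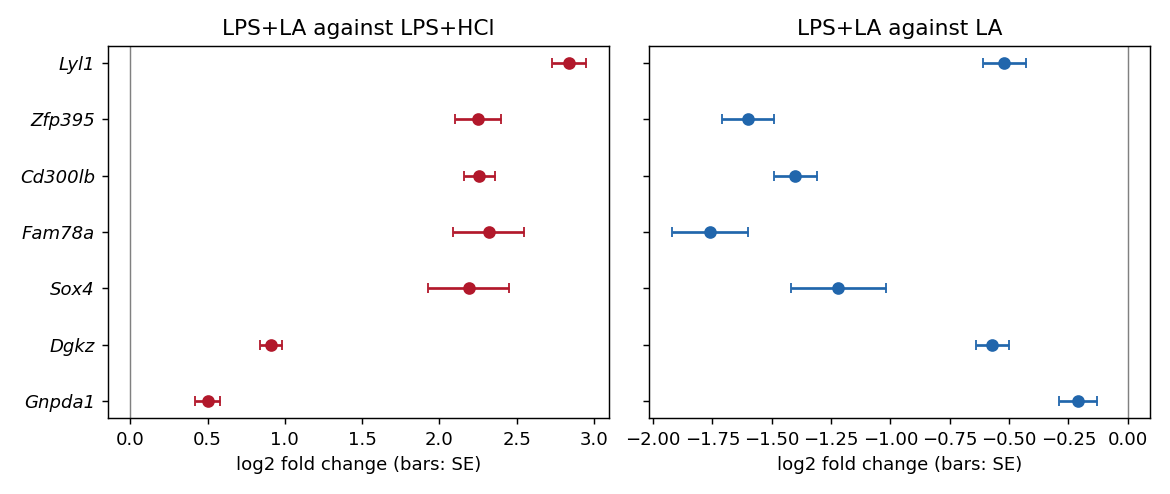
Log2 fold change and its standard error for each gene, LPS+LA against LPS+HCl on the left and LPS+LA against LA on the right, with 2 libraries a group and axes that differ in range. All points lie above 0 on the left, from 0.50 in Gnpda1 to 2.84 in Lyl1, and below 0 on the right, from -1.76 in Fam78a to -0.21 in Gnpda1.

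Against control the genes split by how near to it they stood with LPS+LA. LPS+LA against control was -1.89 (SE 0.16) for Fam78a, -1.23 (SE 0.09) for Cd300lb, -1.14 (SE 0.12) for Zfp395, -0.72 (SE 0.09) for Lyl1, -0.37 (SE 0.07) for Dgkz, -0.26 (SE 0.20) for Sox4 and -0.24 (SE 0.08) for Gnpda1. All but Sox4 were called lower, where 24.9% of all genes tested were, and the shared control libraries mean that this is a description. Gnpda1 was not called without control replicate 1 (-0.22), without LPS+LA replicate 2 (-0.20) or without the 2 libraries with brain transcripts (-0.22), which left 5 lower. With total-count scaling Sox4 was called too (-0.58), which gave 7 lower. LPS+HCl against control ran from -4.21 (SE 0.21) in Fam78a to -0.75 (SE 0.08) in Gnpda1, and all 7 were called lower, where 28.1% of all genes tested were.

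Lactic acid without LPS left most of the genes near control, with Sox4 farthest above it. LA against control was 0.96 (SE 0.19) for Sox4, 0.46 (SE 0.11) for Zfp395, 0.20 (SE 0.07) for Dgkz, 0.16 (SE 0.08) for Cd300lb, -0.04 (SE 0.07) for Gnpda1, -0.13 (SE 0.15) for Fam78a and -0.20 (SE 0.09) for Lyl1. Sox4, Zfp395 and Dgkz were called higher, where 20.4% of all genes tested were, and 0 of the 7 were called lower by edgeR, where 17.9% were. On the linear scale, LA libraries averaged 195% of control for Sox4, 138% for Zfp395 and 87.1% for Lyl1. The call of Dgkz was lost in 8 of the 17 other settings: total-count scaling (0.09), the fit of 2 groups, and leaving out control replicate 1 (0.11), LPS replicate 1 or 2, LA replicate 1 or 2, or the 2 libraries with brain transcripts. Lyl1 was called lower with total-count scaling and without LA replicate 2 (-0.31 each).

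The genes whose profiles were most like those of the 7 were sought over the 8 libraries other than control. Likeness was the root-mean-square distance in log2 CPM after subtracting the control mean. Among the 7 themselves, Zfp395 and Cd300lb were closest (0.239), and Lyl1 was 0.366 from Cd300lb. Outside them, Tmem86a, Cxcr4 and Ccsap came nearest to Cd300lb (0.481, 0.527 and 0.572) and, in another order, to Zfp395 (Cxcr4 0.515, Tmem86a 0.679, Ccsap 0.751). Tmem86a averaged 25.1 CPM with LPS+LA, 5.27 CPM with LPS+HCl, 1.54 CPM with LPS, 51.9 CPM with LA and 60.5 CPM in control. Lyl1 was nearest to Tmem86a (0.491), Cxcr4 (0.667) and Sesn1 (0.672), the last a stress-induced sestrin. The 3 profiles Lyl1, Zfp395 and Cd300lb thus shared the same near neighbours Tmem86a and Cxcr4.

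Sox4 was nearest to Neurl1b (0.449), Arrdc3 (0.565) and Irf2bp2 (0.574), each of which was also above control with LA alone. Arrdc3 averaged 16.2 CPM with LPS+LA, 5.46 CPM with LPS+HCl, 1.05 CPM with LPS, 77.1 CPM with LA and 27.1 CPM in control. Fam78a had no close match, the nearest being Cdca7 (0.79), Ccsap (0.951) and Sesn1 (0.981). Dgkz was nearest to Abl1 (0.16), Cbx6 (0.189) and Tacc2 (0.192), and Gnpda1 to Neil3 (0.0396), Gna12 (0.0796) and Tspan32 (0.121). The profiles of the 2 enzyme genes thus had closer matches than those of the 5 genes under 2% with LPS. Nothing more is read from this, because the distance includes the LPS libraries that chose the genes. Few genes fell as deep as those 5, and the LPS counts of Sox4 and Fam78a were very low.

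Genes that adjoin or overlap the 7 are given beside them. Whether the authors' counting took account of strand is unknown. Reads from a stretch shared by overlapping genes may therefore have been counted for either gene, which was not tested. The levels of such genes still differed widely with LPS. Fam78a held 1 and 5 counts in the LPS libraries, where the overlapping gene Nup214 averaged 103 CPM. Lyl1 averaged 1.7 CPM with LPS, where the overlapping gene Nfix averaged 40.3 CPM. Nfix, a transcription factor gene that overlaps Lyl1, moved the other way, at 22.0 CPM with LPS+LA, 33.2 CPM with LPS+HCl, 40.3 CPM with LPS, 20.9 CPM with LA and 26.8 CPM in control. LPS+LA against LPS+HCl was -0.59 for Nfix (edgeR adjusted p = 0.000326). Nup214, a nuclear pore gene that overlaps Fam78a, stayed between 77.4 CPM with LA and 109 CPM in control, and its difference between LPS+LA and LPS+HCl was -0.17 (edgeR adjusted p = 0.134). Trmt1, 1615 bases from Lyl1, had 0.20 (edgeR adjusted p = 0.0761).

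Rnf14, next to Gnpda1, was opposite to it, at 62.3 CPM with LPS+LA, 98.8 CPM with LPS+HCl, 149 CPM with LPS, 38.8 CPM with LA and 50.1 CPM in control (LPS+LA against LPS+HCl -0.66, edgeR adjusted p = 3.13e-07). Ndfip1, on the other side of Gnpda1, had 0.17 (edgeR adjusted p = 0.152). Cd300a, an inhibitory receptor gene beside Cd300lb, had the same order over the LPS groups and control, within a smaller range. It averaged 48.7 CPM with LPS+LA, 33.3 CPM with LPS+HCl, 23.3 CPM with LPS, 57.1 CPM with LA and 70.9 CPM in control (LPS+LA against LPS+HCl 0.55, edgeR adjusted p = 0.000162). With LA alone the mean of Cd300a thus lay below control, whereas that of Cd300lb lay above it (167 against 149 CPM). Creb3l1, beside Dgkz, was also higher with LPS+LA than with LPS+HCl (0.38, edgeR adjusted p = 0.0295). Mdk, a growth factor gene 525 bases from Dgkz, was low, at 0.316 CPM with LPS+LA, 0.138 CPM with LPS+HCl, 0.033 CPM with LPS, 0.732 CPM with LA and 0.905 CPM in control. It fell with LPS (-4.55, edgeR adjusted p = 0.00602), and LPS+LA against LPS was 3.05 (edgeR adjusted p = 0.0929). Dand5, 110689 bases from Lyl1, also fell with LPS (-1.86, edgeR adjusted p = 0.00833), and LPS+LA against LPS was 1.19 (edgeR adjusted p = 0.1). Dand5, Plpp7, Mdk, Nrsn1 and Cdkal1 were not called in LPS+LA against LPS+HCl, and Fzd3, Pnoc, Cd300c and Aif1l were too low to be tested.

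**Figure D4:**
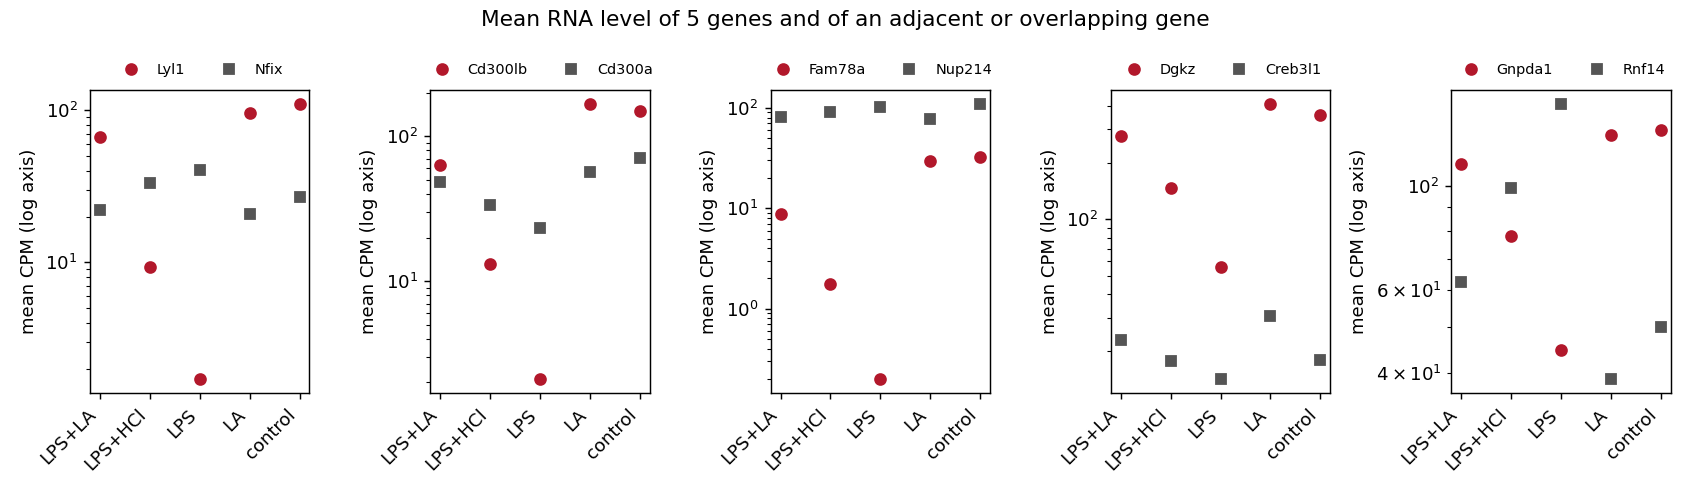
Mean CPM on log axes over 2 libraries for 5 of the genes (circles) and for an adjacent or overlapping gene (squares) in LPS+LA, LPS+HCl, LPS, LA and control. Nfix and Rnf14 are highest with LPS (40.3 and 149 CPM), where Lyl1 and Gnpda1 are lowest, and Cd300a is lowest with LPS (23.3 CPM), as is Cd300lb.

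Relatives of the 7 genes were described for LPS+LA against LPS+HCl, without a test of the lists. Of all genes tested, 18.4% were called higher and 22.5% lower in it. Among 9 other CD300 genes, 3 rose and 0 fell by edgeR: Cd300lf (0.71, edgeR adjusted p = 1.45e-06), Cd300a and Cd300c2 (0.36, edgeR adjusted p = 0.00174). The median over the 9 was 0.00, so the difference of Cd300lb was not common to the family. Among 6 other diacylglycerol kinases, 1 rose and 2 fell. Dgkd had 0.35 (edgeR adjusted p = 0.000271), whereas Dgkh had -1.94 (edgeR adjusted p = 6.84e-13) and Dgka -1.12 (edgeR adjusted p = 1.82e-07).

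Dgkh averaged 25.5 CPM with LPS+LA, 97.9 CPM with LPS+HCl, 98.8 CPM with LPS, 12 CPM with LA and 12.3 CPM in control. Its LPS+HCl and LPS levels were thus alike, as were its LA and control levels. Of 16 other enzymes of hexosamine and amino sugar metabolism, 5 rose and 1 fell. Oga, which removes O-linked N-acetylglucosamine from proteins, had -0.44 (edgeR adjusted p = 0.000359), and Gne, which starts sialic acid synthesis, had 0.54 (edgeR adjusted p = 0.0221). Nagk, a kinase that salvages N-acetylglucosamine, had 0.37 (edgeR adjusted p = 0.00272), and Nans, a sialic acid synthase, had 0.35 (edgeR adjusted p = 0.00312). Gnpda2, the paralog of Gnpda1, is on the list with -0.06 (edgeR adjusted p = 0.85), a value named after it was seen.

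Of 11 other partners of Lyl1 and stem cell factors, 5 rose and 2 fell with LPS+LA relative to LPS+HCl. The E protein genes went different ways, with Tcf4 at -1.09 (edgeR adjusted p = 7.96e-12) and Tcf3 at 0.42 (edgeR adjusted p = 0.00398). Fli1, an ETS factor, had 0.77 (edgeR adjusted p = 2.04e-07) and Ldb1, a bridging protein of the Lyl1 complex, 0.49 (edgeR adjusted p = 6.28e-05). Sox12 was the only other Sox gene high enough to test (1.72, edgeR adjusted p = 0.267), and neither Zfp704 (0.07, edgeR adjusted p = 0.713) nor Fam78b (0.88, edgeR adjusted p = 0.399) was called. The median log2 difference was 0.21 over the 11 partners and factors, 0.04 over the 16 sugar enzymes and -0.22 over the 6 kinases, beside -0.00 over all genes tested.

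Most sites of open chromatin near the 7 genes had a peak in every sample. Per the file headers, all LPS+LA and LA samples came from sequencing lane 6 and all LPS and control samples from lane 5, so lane and lactic acid cannot be told apart, while LPS against control lies within 1 lane. Peaks of the 12 ATAC samples were merged into 127890 sites, of which 63 lay within 10 kb of the gene bounds. A peak was called in all 12 samples at 40 of the 63 sites (63.5%), beside 43.9% of all sites. LPS+LA samples had peaks at 47, 52 and 52 of the 63 sites, LPS samples at 60, 52 and 49, LA samples at 48 each, and control samples at 51, 51 and 55. Each LA sample had fewer of these sites than each control sample, as over all sites, where LA samples had peaks at 57.6%, 60.6% and 59.0% and control samples at 66.4%, 61.1% and 65.8%, and the ranges of LPS+LA, LPS and control overlapped.

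Most start regions still had a called peak where the RNA was low. A peak was called in all 12 samples over the printed windows of Lyl1 (chr8:84701185-84701919), Sox4 (chr13:28952310-28954064) and Cd300lb (chr11:114934129-114934672) and over Fam78a start A (chr2:32083179-32083994). The same held for a site across the lower bound of Zfp395 (chr14:65357948-65359200) and a site across the upper bound of Gnpda1 (chr18:38338119-38339312). At Dgkz the printed window (chr2:91950253-91950642) had a peak in 11 of 12 samples, with 2 of 3 in LPS+LA. The site over another Dgkz start, not printed (chr2:91963391-91964047), had a peak in all 12 samples. By the authors' score the Lyl1 site ranked between the 44.3 and 47.6 percentile of the peaks of its sample with LPS+LA, 61.8 and 63.5 with LPS, 67.3 and 73.1 with LA, and 83.5 and 85.4 in control. The printed Dgkz window ranked at the 27.6 and 33.5 percentile in its LPS+LA samples with a peak, and between 5.56 and 25.6 with LPS, 49 and 59.5 with LA, and 55.3 and 66.6 in control. These ranks come from lists of different lengths and show no change by themselves. The Sox4 site ranked between 64 and 81 over all samples, and the site over the other Dgkz start between 93.6 and 97.6. Fam78a start A ranked lower, between 15.2 and 55.9. Fam78a start B (chr2:32084548-32084900) had a peak in 1 of 3 LPS+LA, 1 of 3 LPS, 3 of 3 LA and 3 of 3 control samples. It was the one start site with fewer peaks in both groups given LPS. The Fam78a windows that are not printed (chr2:32064115-32064414 and chr2:32064862-32065161) had no peak in any sample.

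**Figure D5:**
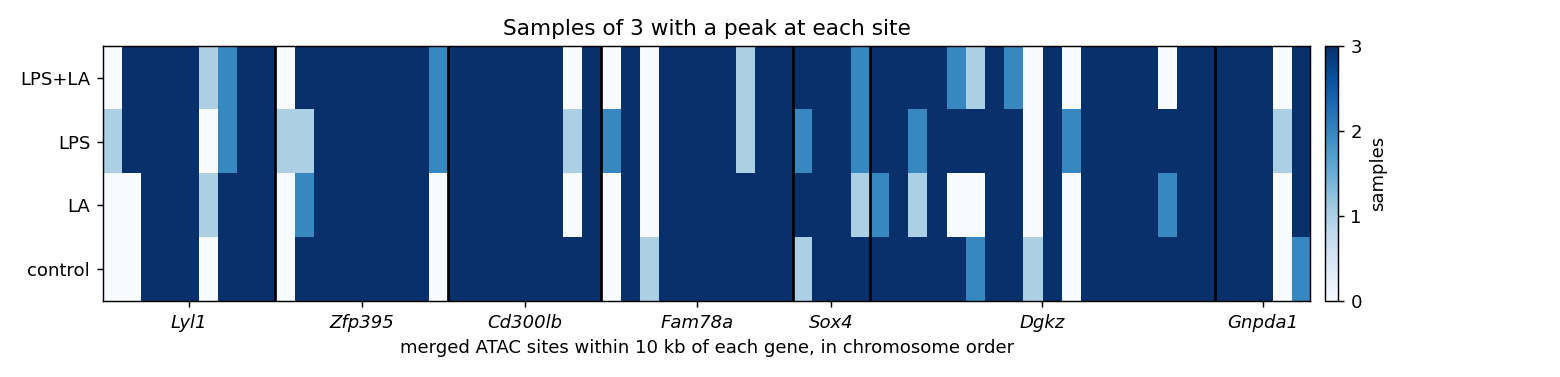
Number of samples, of 3, with a called peak at each of the 63 merged sites within 10 kb of the 7 genes, in chromosome order within each gene, for LPS+LA, LPS, LA and control. Most columns are full in all 4 groups (40 of 63), and the pale cells are scattered over genes and groups.

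Counting a site as gained or lost only where 3 of 3 samples of one group and 0 of 3 of the other had a peak, LPS against control gave 1 gained site, beside 8.27% of all sites, and 0 lost, beside 2.44%. With 3 samples a group an exact test of a single site cannot go below p = 0.10, so none was made. The gained site lay upstream of Lyl1 (chr8:84698459-84698787), with a peak in 3 of 3 LPS+LA, 3 of 3 LPS, 0 of 3 LA and 0 of 3 control samples. LPS+LA against LPS gave 0 gained sites, beside 2.24% of all sites, and 1 lost, beside 2.29%. That site lay just outside the bounds of Dgkz (chr2:91977971-91978421), with a peak in 0 of 3 LPS+LA, 3 of 3 LPS, 2 of 3 LA and 3 of 3 control samples.

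LA against control gave 0 gained sites, beside 1.53% of all sites, and 2 lost, beside 2.38%. The lost site of Cd300lb (chr11:114933585-114933991), just inside the gene from its start, had a peak in 0 of 3 LPS+LA, 1 of 3 LPS, 0 of 3 LA and 3 of 3 control samples. The lost site of Dgkz (chr2:91942393-91942709) had a peak in 2 of 3 LPS+LA, 3 of 3 LPS, 0 of 3 LA and 3 of 3 control samples. A site upstream of Zfp395 (chr14:65351487-65351969) had a peak in 3 of 3 LPS+LA, 1 of 3 LPS, 2 of 3 LA and 3 of 3 control samples. Without LPS replicate 1, the sample with the most peaks (100667), LPS against control had 3 lost sites, at Cd300lb, Zfp395 and Fam78a start B, beside 3.86% of all sites, and LPS+LA against LPS had 1 gained site, at Zfp395, beside 3.39%. With only peaks at or above the median score of their sample, LPS against control had 4 lost sites, 3 of them at Dgkz and 1 at Fam78a (3.74% of all sites), and LPS+LA against LPS had 3 gained sites, 2 at Dgkz and 1 at Gnpda1 (3% of all sites). The same 2 Dgkz sites (chr2:91955905-91956367 and chr2:91986086-91986484) were among those lost with LPS and among those gained with LPS+LA, and the printed Dgkz window was among those lost with LPS. In that setting the site over the Lyl1 start counted as lost in LPS+LA against LPS (2.88% of all sites), opposite to the RNA of Lyl1.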

How the data were processed

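The genes, lists, motifs and comparisons were chosen with earlier results of these data known. For RNA the authors deposited a table with the expected count, FPKM and TPM of each gene in each library. The submitters' processing notes name HISAT, Bowtie2 and GRCm38.p6, and the tool for estimating counts was not given in the sources used here. All deposited expected counts (6.07% not whole) were rounded. The deposited TPM, whose sum is fixed per library, served only to compare levels between genes and as an alternative, and the deposited FPKM was not used. Of the gene IDs, 15959 matched RefSeq (GRCm38.p6).

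Genes passing filterByExpr (minimum count 10, minimum total 15) were scaled by TMM, whose factors ran from 0.759 to 1.27. All 10 libraries were fitted in 1 model with 1 term per group by edgeR 4.0.16 (R 4.3.3), using its robust, two-sided quasi-likelihood test and Benjamini-Hochberg adjustment over all 12213 genes tested and a threshold of 0.05. SE is the absolute log2 fold change divided by the square root of F. In simulated counts for LPS+LA against LPS+HCl, with 50 changed genes per size, the step was checked for direction and recovery. DESeq2 1.42.0, other scaling, no filter, 2-group fits, a replicate term and left-out libraries were alternatives.

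For ATAC-seq the authors deposited 1 list of scored peaks for each sample, called separately with MACS2, per the file headers. BWA 0.5.9, Picard, MACS2 2.0.10 and mm10 (GRCm38) are named in the submitters' processing notes. Samples had 76680 to 100667 peaks. Peaks were merged at an overlap of at least 1 bp. Peak lists hold no reads, so the depth behind a peak is unknown and a missing peak is not closed chromatin. Any shift of reads for the transposase cut was not given in the sources used here.

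Named genes were the 7, the 3 nearest profiles of each, the adjacent and overlapping genes, and up to 4 relatives per list by smallest p in LPS+LA against LPS+HCl; the genes next below Sox4 by depth of fall, and others where stated, were added after their values were seen. The summed level of the brain markers is not reported here. Plots used matplotlib 3.10.9.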

Additional observations from a re-analysis of the deposited data

Results flagged for a closer look

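In Lyl1, LA against control was -0.20 (SE 0.09) on the log2 scale, and both LA libraries (88.8 and 103 CPM) lay below both control libraries (106 and 115 CPM), whereas both LPS+LA libraries (65.2 and 68.4 CPM) lay above both LPS libraries (1.88 and 1.52 CPM). The libraries with lactic acid thus lay below their reference without LPS and above it with LPS. The lower level with LA alone was not called (edgeR adjusted p = 0.086). Over the settings tried, LA against control ran from -0.31 to -0.10 in Lyl1.

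Fam78a had the same order of libraries, and its lower level with LA alone was not called either (edgeR adjusted p = 0.506). LA against control was -0.13 (SE 0.15), with LA libraries at 30.1 and 29.1 CPM and control libraries at 32.7 and 32.2 CPM, and LPS+LA libraries (7.97 and 9.48 CPM) lay above LPS libraries (0.0648 and 0.33 CPM). Over the settings tried it ran from -0.24 to -0.11. With TMM scaling and all libraries LA against control was called in neither gene, while Lyl1 was called lower with total-count scaling and without LA replicate 2 (-0.31 each). In both genes the difference between the effects was not tested, because it uses the LPS and control libraries that chose the genes.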

How the results depend on the processing

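Under the 17 other RNA settings (DESeq2 size factors, total-count scaling, no low-count filter, 2-group fits, the DESeq2 Wald test, a replicate block, and libraries left out singly or as the pair with brain transcripts), all 7 genes stayed called higher in LPS+LA against LPS+HCl, and no log2 value that was called changed sign. Counts of all genes called stayed within 1.5 times in each contrast. Replicate numbers were not taken as pairing the RNA libraries. Same-numbered libraries' deviations correlated between -0.0518 and 0.0495, except at -0.503 between control and LPS+HCl. Those groups each hold 1 of the libraries with brain transcripts. With 2 libraries a group, these values cannot exclude a shared mouse or culture. With the replicate block, 2201 genes were higher and 2711 lower in LPS+LA against LPS+HCl, with the same 7 calls. In LPS+LA against LA, 1925 were then higher and 1762 lower. Leaving out libraries gave 3485 to 5279 called genes in LPS+LA against LPS+HCl and 3065 to 3665 in LPS+LA against LA, with 6 or 7 of the 7 genes lower in the second, 5 or 6 lower in LPS+LA against control and 2 or 3 higher in LA against control. Without LA replicate 2, Lyl1 was also called lower in LA against control.

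Total-count scaling moved the median log2 of all genes by -0.72 in LPS against control, 0.40 in LPS+LA against LPS, 0.24 in LPS+HCl against LPS, -0.32 in LPS+LA against control, -0.49 in LPS+HCl against control, -0.10 in LA against control and -0.38 in LPS+HCl against LA. Genes called higher and lower were then 1761 and 8289 (TMM 3963 and 3951) in LPS against control, 6208 and 2032 (TMM 3569 and 3622) in LPS+LA against LPS, 4535 and 1310 (TMM 2201 and 2541) in LPS+HCl against LPS, 1705 and 5726 (TMM 3219 and 3041) in LPS+LA against control, 1819 and 6955 (TMM 3611 and 3426) in LPS+HCl against control, 1719 and 3070 (TMM 2488 and 2189) in LA against control, and 2008 and 6406 (TMM 3325 and 3260) in LPS+HCl against LA.

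The median over the 7 genes of the level with LPS+LA was 60.6% of control, against 44.6% in deposited TPM, 48.7% in total-count CPM and 58.3% to 63.1% with 1 library left out. With LPS+HCl it was 9.57%, against 6.66% in TPM, 6.84% in total-count CPM and 8.71% to 10.4% with 1 library left out.

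The ATAC sites near the genes numbered 63 within 10 kb, 137 within 50 kb, 36 within gene bounds alone and 60 to 63 with 1 sample left out. In LPS against control, gained sites numbered 8 within 50 kb, 0 in gene bounds, 2 with peaks at or above the median score and 1 to 3 with 1 sample left out, and lost sites 3, 0, 4 and 0 to 3 in the same settings. In LPS+LA against LPS, 3 were gained at or above the median score and 0 to 1 with 1 sample left out, while 0 were lost in gene bounds and 1 to 2 with 1 sample left out. In LA against control, 3 were gained within 50 kb and 0 to 1 with 1 sample left out, and 7 were lost within 50 kb, 0 at or above the median score and 2 to 3 with 1 sample left out. Merging only peaks that overlapped by 100 bp was also tried. The cause of these differences was not tested. With 2 libraries a group and 1 to 5 counts in LPS libraries, the falls of Fam78a and Sox4 are known only roughly.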

Other observations

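Some of the listed partners of Lyl1 and stem cell factors were not called in LPS+LA against LPS+HCl. Runx1, a core blood transcription factor, averaged 90.1 CPM with LPS+LA, 85.6 CPM with LPS+HCl, 44.0 CPM with LPS, 74.3 CPM with LA and 85.3 CPM in control, and its log2 difference between LPS+LA and LPS+HCl was 0.07 (SE 0.08, edgeR adjusted p = 0.48). Tal1, the closest relative of Lyl1 in the list, averaged 65.9 CPM with LPS+LA, 77.2 CPM with LPS+HCl, 36.1 CPM with LPS, 57.5 CPM with LA and 41.0 CPM in control, with -0.23 (SE 0.09, edgeR adjusted p = 0.0569) between LPS+LA and LPS+HCl. Spi1, which encodes PU.1, averaged 654 CPM with LPS+LA, 768 CPM with LPS+HCl, 1290 CPM with LPS, 512 CPM with LA and 420 CPM in control. Unlike Runx1 and Tal1, Spi1 was called in LPS+LA against LPS+HCl, and it was lower (-0.23, SE 0.07, edgeR adjusted p = 0.0162). These 3 genes were named after their values were seen.

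Cnr2 was next below Sox4 by depth of fall among genes with at least 10 CPM in control. Its level was 20.8% of control with LPS+LA, 3.64% with LPS+HCl and 1.67% with LPS, where Sox4 had 83.3%, 18.2% and 1.59%.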
